A study of Mus musculus with 2 samples.

Results

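The interferon-induced GTPases were studied in 2 clonal murine bone marrow stromal lines, BMSC-Adipo (mMSC-Adipo), an adipocyte progenitor line, and BMSC-Osteo (mMSC-Bone), an osteoblast progenitor line. The group was chosen by gene symbol, with 10 genes named: the guanylate-binding proteins *Gbp2*, *Gbp3*, *Gbp7* and *Gbp9*, and the immunity-related GTPases *Igtp*, *Irgm1*, *Irgm2*, *Iigp1*, *Ifi47* and *Tgtp1*. Probe sets carrying these symbols were found for 9 of them, of 20707 genes analysed in all, and *Gbp9* was not analysed here. The 9 genes were read by 12 probe sets, and all 9 lay above the brightness filter described below. Both lines immortalized spontaneously from C57BL/6 bone marrow and carry the same background, a GFP transgene under the beta-actin promoter and ApoE-/-, so both lines share these alleles. They were grown without differentiation agents or added interferon, in DMEM that the labels give as holding 12% FBS (the study's methods state a lower share). RNA of 3 cultures of each line was pooled and hybridised to 1 Affymetrix expression array per line, from 8 ug of RNA. Each line is a single clone on a single array, so line, clone and array cannot be told apart, no replicate error exists and no test between the lines was possible.

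These GTPases are a defence system of vertebrate cells against parasites and bacteria that live inside vacuoles. Interferon gamma acts through its receptor and the kinases JAK1 and JAK2 on genes with GAS elements, while type I interferons act through a factor that holds STAT2 and IRF9 on genes with interferon-stimulated response elements (ISREs). The p47 immunity-related GTPases (IRGs) and the p65 guanylate-binding proteins (GBPs) are made in response, and in mice they gather on the membrane around *Toxoplasma gondii* and break it open. IRGs come in 2 classes named for a motif in the GTP-binding loop. The GMS class (*Irgm1*, *Irgm2*, *Igtp*) sits on the cell's own membranes and keeps the GKS class (*Iigp1*, *Ifi47*, *Tgtp1*), the effectors, inactive there.

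Start-site sequence was available for 8 members in the RefSeq promoter set (GRCm38.p6), as windows of 300 bases that reach 250 bases upstream of the gene start. An ISRE core was searched as GAAA, any 2 bases and GAAA again (TTTC on the opposite strand), and a GAS element as TTCNNNGAA, which reads the same on both strands. Matches that overlapped were each counted. An ISRE core was present in a window of 7 of the 8 members, and of 3.99% of all 27025 genes with windows (3.44% of all 32851 windows, since a gene can have several). A GAS element was present in 4 of the 8 members and in 9.55% of all genes (8.30% of windows). *Gbp3* had a second window, without an ISRE core. *Ifi47* had neither in its window. *Iigp1* and *Gbp9* had no window in the set and were not searched. The stretches of the 7 members with an ISRE core are shown, and capitals mark the ISRE core and any GAS element within 60 bases of it. All are written 5′ to 3′ on the strand of the gene and end before the gene start.
*Irgm2*, chr11:58214882-58214942, plus strand: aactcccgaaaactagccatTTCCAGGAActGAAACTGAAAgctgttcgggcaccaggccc
*Igtp*, chr11:58199491-58199551, plus strand: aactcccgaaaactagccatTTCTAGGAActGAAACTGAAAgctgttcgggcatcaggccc
*Tgtp1*, chr11:48992294-48992354, minus strand: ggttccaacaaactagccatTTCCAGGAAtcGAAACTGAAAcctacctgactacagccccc
*Irgm1*, chr11:48871421-48871470, minus strand: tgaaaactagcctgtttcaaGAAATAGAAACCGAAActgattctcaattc
*Gbp7*, chr3:142530210-142530312, plus strand: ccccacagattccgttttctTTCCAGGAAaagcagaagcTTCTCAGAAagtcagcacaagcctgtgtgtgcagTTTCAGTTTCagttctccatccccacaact
*Gbp3*, chr3:142559979-142560034, plus strand: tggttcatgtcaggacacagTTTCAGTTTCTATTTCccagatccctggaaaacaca
*Gbp2*, chr3:142620584-142620633, plus strand: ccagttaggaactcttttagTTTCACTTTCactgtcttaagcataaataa

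In *Irgm2*, *Igtp* and *Tgtp1* a GAS element stood 2 bases upstream of the ISRE core, a layout looked for after these sequences had been seen. It was found in 5 of the 32851 windows (0.0152%), on either strand. The other two belonged to *Tgtp2* and *Gm12185*, and the latter carries the synonym Irgb2b1 in the RefSeq gene table. *Igtp* and *Irgm2*, which are adjacent genes, were identical at 90.4% of 270 aligned positions of their windows, and *Tgtp1* and *Tgtp2* at 69.1% of 317. The other 34 pairs of windows lay between 46.4% and 54.3%. Matches of letters describe these windows only.

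The deposited values are log2 levels from robust multiarray averaging (RMA), and a difference is the log2 level in BMSC-Adipo minus that in BMSC-Osteo, so that a difference of 1 is 2-fold. Where several probe sets read a gene, the one with the brighter 2-array mean stands for it, and genes with a mean below the 30th percentile, a log2 level of 4.20, were set aside as dim. Of the 9 genes measured, 6 were at least 2-fold higher in BMSC-Adipo (*Iigp1*, *Irgm2*, *Igtp*, *Gbp3*, *Gbp7* and *Ifi47*), none was at least 2-fold higher in BMSC-Osteo, and *Irgm1*, *Gbp2* and *Tgtp1* lay within 2-fold. Among all 14498 genes above the brightness filter, the same rule took 7.88% toward BMSC-Adipo and 6.68% toward BMSC-Osteo. The median difference was 2.04 over the 9 members and -0.03 over all genes. Each of the 3 classes, GMS, GKS and GBP, held 2 genes that were higher in BMSC-Adipo and 1 within 2-fold. The differences given by probe sets of 1 gene varied around each other with a pooled SD of 0.40 on the log2 scale over 6412 genes. This measures probe effects and not replicate error.

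**Figure D1:**
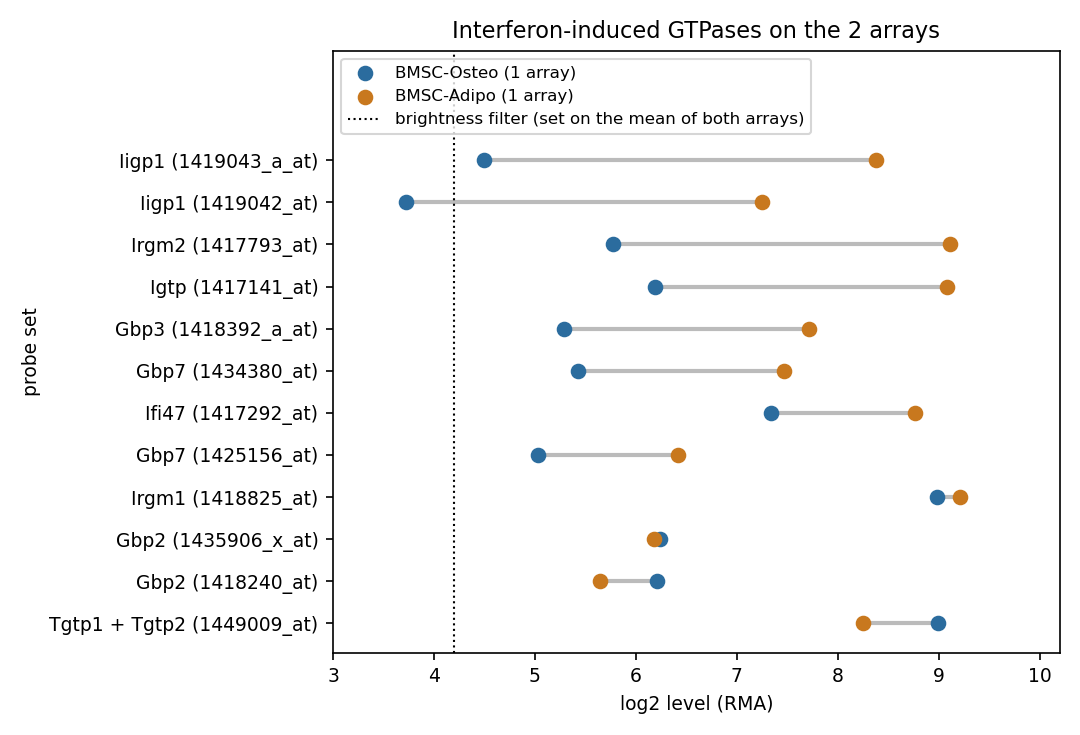
Log2 RMA levels (x axis) of the 12 probe sets of the interferon-induced GTPases (y axis, ordered by difference), with 1 point per array, orange for BMSC-Adipo and blue for BMSC-Osteo, and the brightness filter as a dotted line. The orange point lies more than 1 unit to the right of the blue point for 8 probe sets, while the points of *Irgm1* and of both *Gbp2* probe sets lie less than 1 apart and *Tgtp1* has its orange point to the left, at a difference of -0.73.

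Among the GMS regulators, *Irgm2*, which encodes a Golgi-associated IRG, had a log2 level of 9.11 in BMSC-Adipo and 5.77 in BMSC-Osteo. The difference of 3.34 (10.1-fold) ranked 104 of 14498 genes toward BMSC-Adipo. *Igtp*, also called Irgm3, an IRG of the endoplasmic reticulum, had levels of 9.08 in BMSC-Adipo and 6.19 in BMSC-Osteo, a difference of 2.90 (7.46-fold, rank 152). Both regulators stood on the side of BMSC-Adipo.

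*Irgm1*, the third regulator, behaved otherwise. Its log2 level was 9.21 in BMSC-Adipo and 8.98 in BMSC-Osteo, a difference of 0.23 (1.17-fold), which is smaller than the pooled SD of differences between probe sets. *Irgm1* encodes a protein of Golgi and lysosomal membranes whose loss in mice lets the effector IRGs activate on the cell's own organelles. Its single probe set was far above the filter on both arrays.

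Of the GKS effectors, *Iigp1*, also called Irga6, an IRG that coats the vacuole of *Toxoplasma*, had the largest difference of the 9 members as deposited. Its log2 level was 8.38 in BMSC-Adipo and 4.49 in BMSC-Osteo, a difference of 3.89 (14.8-fold, rank 71). A second probe set gave 7.25 and 3.73, a difference of 3.53. The levels in BMSC-Osteo lay close to or under the filter, and with 32 added to each linear value the difference was 2.74, just under the 2.76 of *Irgm2*. The files hold no detection calls, and whether *Iigp1* RNA was present in that line was therefore not tested.

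*Ifi47*, also called Irgd, had log2 levels of 8.77 in BMSC-Adipo and 7.34 in BMSC-Osteo, a difference of 1.43 (2.69-fold, rank 613). It was the smallest of the 6 differences past 2-fold. *Tgtp1*, also called Irgb6, a vacuole-binding IRG first described in T cells, was the member with the most negative difference. Its level was 8.25 in BMSC-Adipo and 8.99 in BMSC-Osteo, a difference of -0.73 (1.66-fold higher in BMSC-Osteo). The probe set names *Tgtp1* and *Tgtp2* together, so the value is that of both genes and neither was read alone.

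Among the GBPs, which bind vacuoles and bacterial surfaces and coat them with large GTPase assemblies, *Gbp3* had log2 levels of 7.71 in BMSC-Adipo and 5.29 in BMSC-Osteo, a difference of 2.43 (5.37-fold, rank 230). *Gbp7*, which in mouse macrophages helps to bring NADPH oxidase to bacterial vacuoles, had 7.47 and 5.43, a difference of 2.04 (4.12-fold, rank 316). Another probe set of *Gbp7* gave 6.42 and 5.03, a difference of 1.39. *Gbp2*, which is needed in mice for control of *Toxoplasma*, had 6.18 in BMSC-Adipo and 6.24 in BMSC-Osteo, a difference of -0.06. That probe set is of the kind marked x, which can also bind related transcripts. The other probe set of *Gbp2* gave 5.65 and 6.21, a difference of -0.56, so both put *Gbp2* within 2-fold and neither put it higher in BMSC-Adipo.

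**Figure D2:**
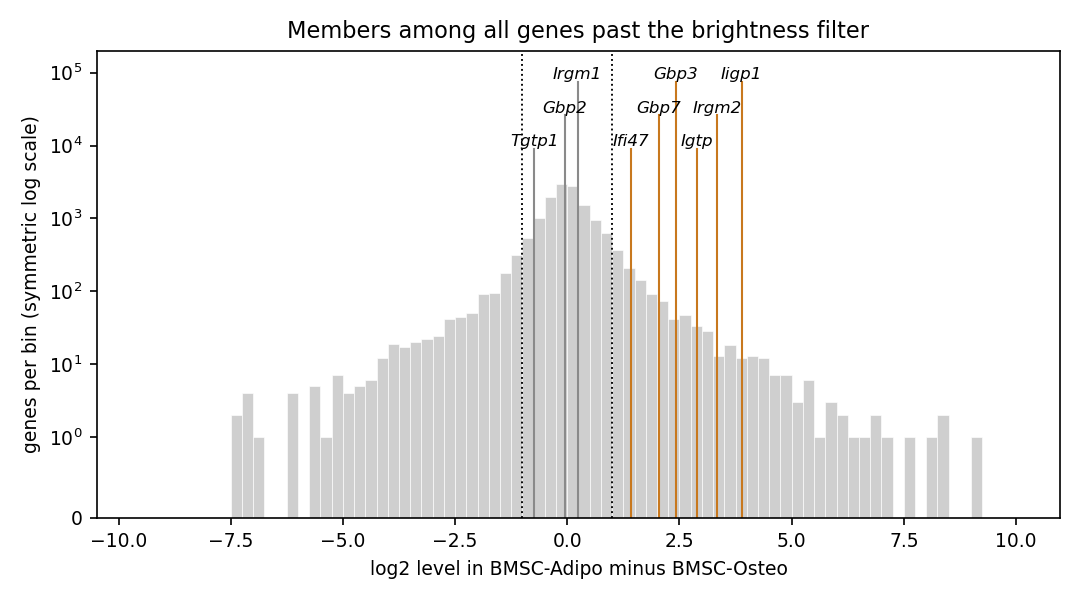
Histogram of the log2 difference (x axis, BMSC-Adipo minus BMSC-Osteo) of all 14498 genes past the filter, with genes per bin on a symmetric log scale (y axis), 1 vertical line per member (orange past 2-fold, grey within it, heights only for legibility) and dotted lines at 2-fold. The 6 orange lines run from 1.43 for *Ifi47* to 3.89 for *Iigp1*, and *Irgm1*, *Gbp2* and *Tgtp1* fall in the central peak.

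Members with an ISRE core stood on both sides of the 2-fold rule. Of the 7 members with an ISRE core, 4 were at least 2-fold higher in BMSC-Adipo (*Gbp3*, *Gbp7*, *Igtp* and *Irgm2*), while *Gbp2*, *Irgm1* and *Tgtp1* were not. *Ifi47*, without a match in its window, was higher in BMSC-Adipo. *Iigp1*, also higher in BMSC-Adipo, had no window and is not in these counts. *Irgm2* and *Tgtp1* have the same letters in both marked elements, TTCCAGGAA and GAAACTGAAA, and had differences of 3.34 and -0.73. The value of -0.73 came from a probe set that *Tgtp1* shares with *Tgtp2*, so *Tgtp1* was not read alone. Whether either marked element was in use in these cells was not measured.

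The members lie in 5 blocks of the genome, by gene order in assembly GRCm38.p6. On chromosome 3 the order is *Gbp5*, *Gbp7*, *Gbp3*, *Gbp2b* and *Gbp2*, and the block divided along its length. *Gbp7* and *Gbp3* had differences of 2.04 and 2.43, and *Gbp2b* and *Gbp2* of -0.31 and -0.06, with *Gbp2b* below the filter. *Gbp5* was not analysed here. On chromosome 5, where *Gbp9* lies between *Gbp8* and *Gbp4*, *Gbp6* at the other end had log2 levels of 7.80 in BMSC-Adipo and 6.10 in BMSC-Osteo (difference 1.70, and 1.72 on a second probe set). *Gbp8* had a difference of -0.92 on its own probe set, which was below the filter. A probe set shared by *Gbp4* and *Gbp8* had 5.11 on both arrays.

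On chromosome 11 the IRG genes form 2 blocks. *Irgm1*, *Tgtp1* and *Ifi47*, in that order with other genes between them, had differences of 0.23, -0.73 and 1.43. In the second block *Igtp* and *Irgm2* had 2.90 and 3.34. *Iigp1* lies on chromosome 18, and *Gm4951*, a relative with the synonym Ifgga2 that stands 3 genes away, had log2 levels of 7.17 in BMSC-Adipo and 3.78 in BMSC-Osteo, a difference of 3.39. The level in BMSC-Osteo was under 4.20, so the gene passed the filter through BMSC-Adipo alone, and it was picked out after its value was seen. It was the 1 gene at least 2-fold higher in BMSC-Adipo among the 22 genes past the filter that flank the blocks (4 genes on each side). *Lrrc8d* (-1.39) and *Smim3* (-1.42) were at least 2-fold higher in BMSC-Osteo, and the median of the 22 flanking genes was -0.23. Both counts were near the shares of all genes, 7.88% toward BMSC-Adipo and 6.68% toward BMSC-Osteo.

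**Figure D3:**
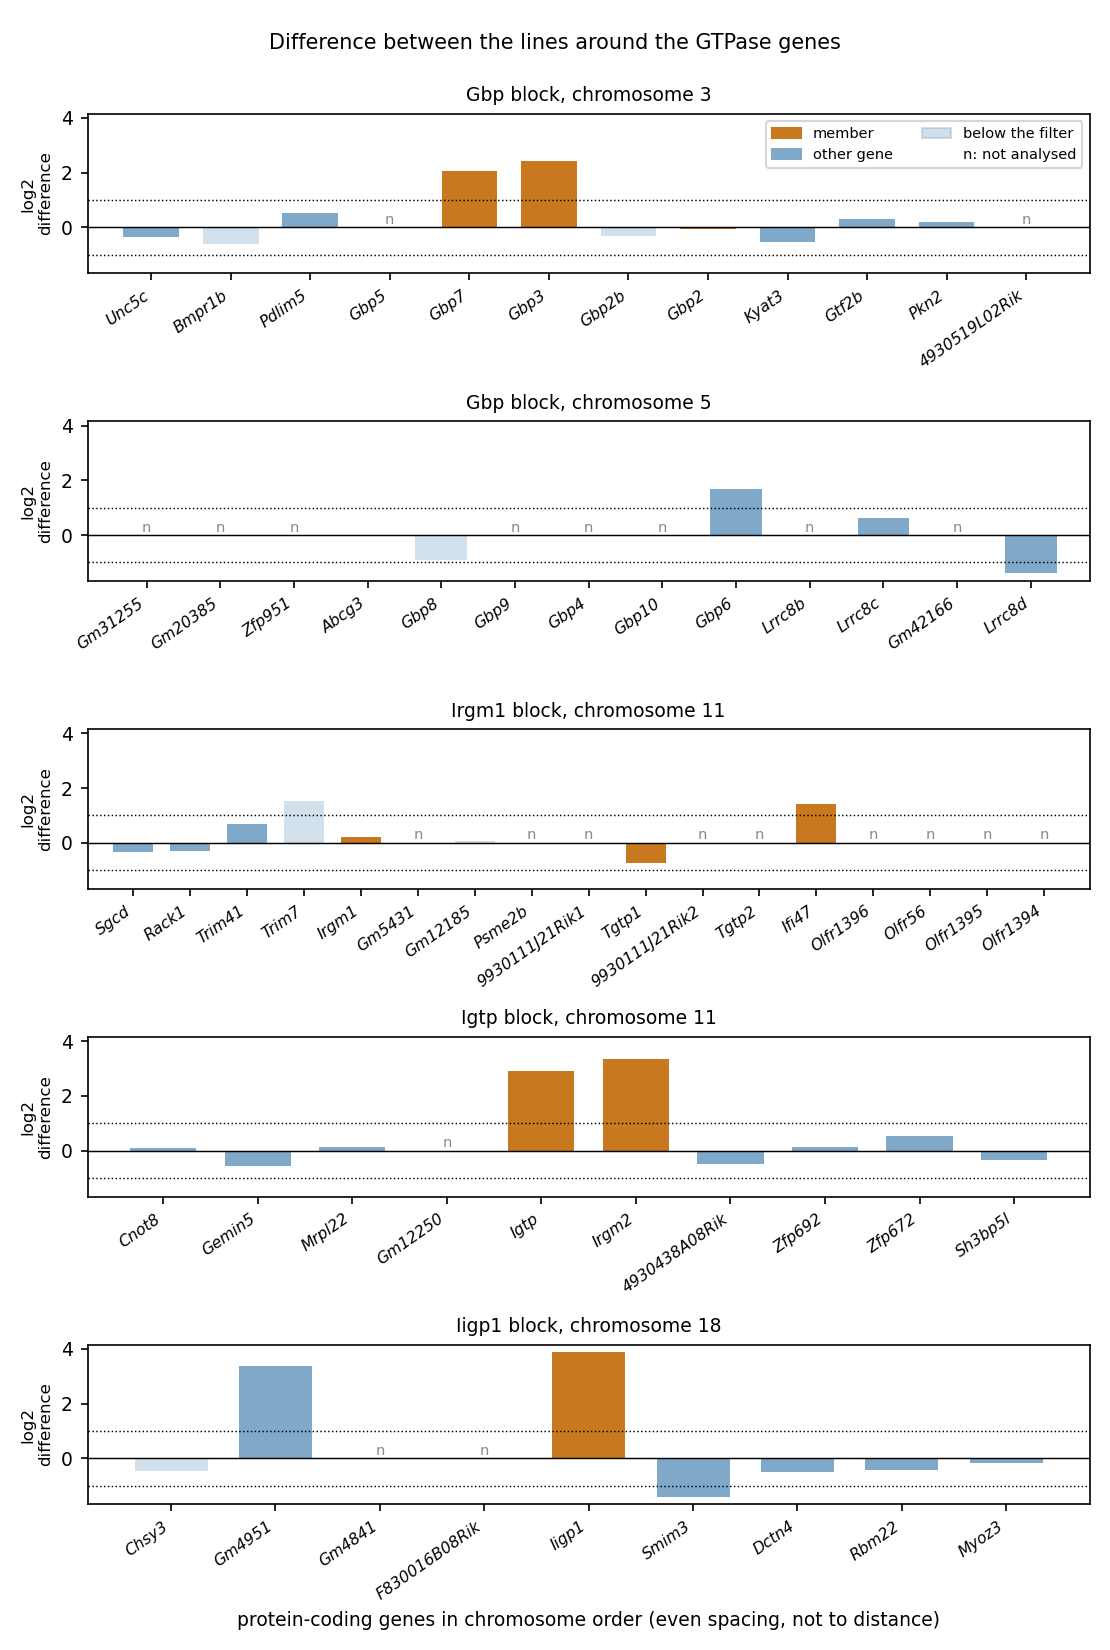
Log2 difference (y axis, BMSC-Adipo minus BMSC-Osteo) of protein-coding genes in chromosome order (x axis, even spacing), with members in orange, other genes in blue, genes below the filter pale, the letter n for genes not analysed and dotted lines at 2-fold. *Igtp* and *Irgm2* at 2.90 and 3.34 stand between flanking genes that, where analysed, lie within 2-fold, and the chromosome 3 block goes from 2.04 and 2.43 at *Gbp7* and *Gbp3* to -0.06 at *Gbp2*.

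The genes of the pathway above the GTPases were read from lists by role. Counts by list stand against 7.88% of all genes toward BMSC-Adipo and 6.68% toward BMSC-Osteo, so 1 gene of a short list is near the background. Of 10 listed genes of interferons and related cytokines, 7 were read and 3 lay past the filter, *Ifna1*, *Tnf* and *Il1b*. None of these 3 differed by 2-fold. *Ifng*, the gene of interferon gamma, had log2 levels of 2.60 in BMSC-Adipo and 2.83 in BMSC-Osteo, below the filter. *Ifnb1*, the gene of interferon beta, had 4.21 and 4.03, also below it. Of the 7 receptor and kinase genes, all had a positive difference and 1 passed 2-fold, *Ifngr1*, the ligand-binding chain of the interferon gamma receptor, at 9.50 in BMSC-Adipo and 8.20 in BMSC-Osteo (1.30). The other chain, *Ifngr2*, had a difference of 0.29, and the kinases *Jak1* and *Jak2* had 0.46 and 0.08 (-0.39 on a second *Jak2* probe set). *Ifnar1*, a chain of the type I receptor, had 0.39, and 1.32 on a second probe set. The median of these 7 genes was 0.39.

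Of 11 transcription factor genes, 5 were at least 2-fold higher in BMSC-Adipo and none in BMSC-Osteo, with a median of 0.50. The shares of all genes were 7.88% and 6.68%. *Stat2* had log2 levels of 8.44 in BMSC-Adipo and 5.47 in BMSC-Osteo (2.97). *Irf9*, whose product binds ISREs together with that of *Stat2*, had 8.69 and 6.45 (2.23). *Nlrc5*, an activator of MHC class I genes, followed at 1.54, then *Irf2* at 1.15 and *Irf7* at 1.14. *Irf1*, whose product also binds ISRE-like elements and acts below interferon gamma, did not follow them, with 8.60 in BMSC-Adipo and 8.64 in BMSC-Osteo (-0.04).

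Among 8 inhibitor genes, *Usp18*, which restrains type I interferon receptor signalling, had 8.99 in BMSC-Adipo and 4.29 in BMSC-Osteo (4.70), and the other 7 lay within 2-fold. They included *Socs1*, a brake on JAK kinases, at 4.48 and 4.99 (-0.51), and the related *Socs3* at 9.27 and 8.35 (0.91). Other interferon gamma targets past the filter numbered 10, of which 4 were higher in BMSC-Adipo by 2-fold or more. They were the immunoproteasome genes *Psmb8* (1.53), *Psmb9* (1.11) and *Psmb10* (1.05) and the proteasome activator gene *Psme1* (1.46). *Psmb8* had 0.60 on a second probe set, and probe sets shared by *Psmb9* and *Tap1*, not counted here, gave 1.80 and 0.68. *Cxcl10*, a chemokine gene, was the 1 at least 2-fold higher in BMSC-Osteo (-1.09), and the median of the 10 was 0.75. The same rule took 7.88% of all genes toward BMSC-Adipo and 6.68% toward BMSC-Osteo, so 1 of 10 was near the background, as was 1 of 8 inhibitors. Members of the antiviral Mx family, large GTPases that are also interferon targets, had small differences, -0.11 for *Mx2* and -0.44 for *Mx1*, the latter below the filter.

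**Figure D4:**
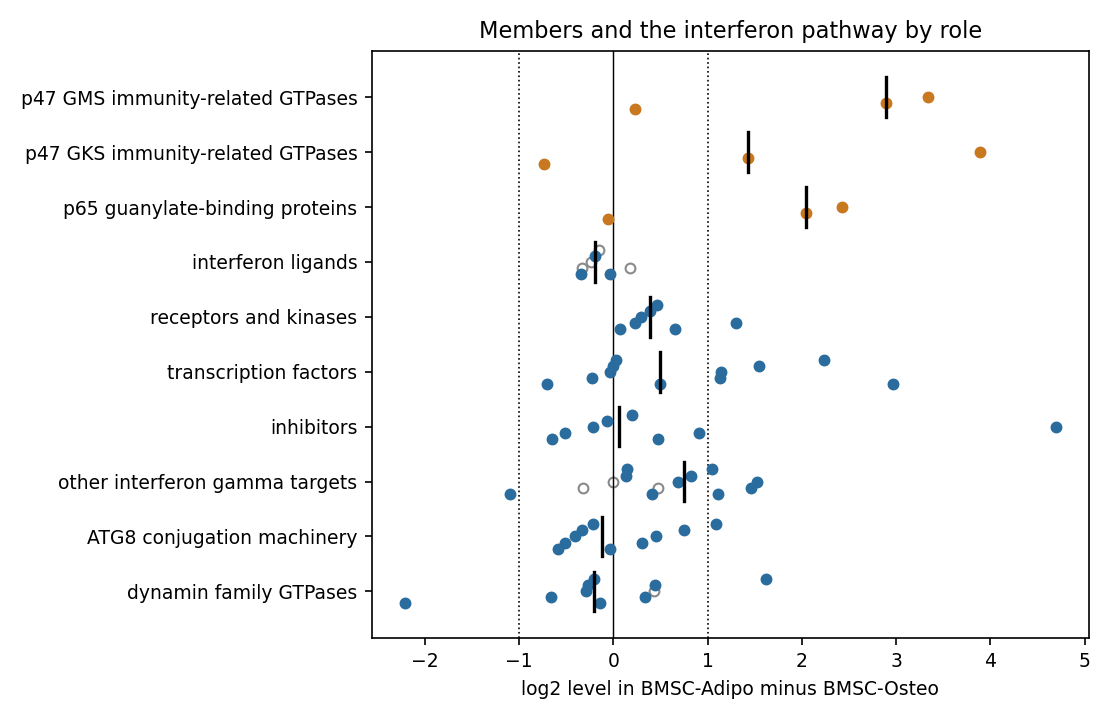
Log2 difference (x axis, BMSC-Adipo minus BMSC-Osteo) of single genes by role (y axis), with members in orange, other genes in blue, genes below the filter as open circles, a black bar at the median of the genes past the filter and dotted lines at 2-fold. Each class of members has 2 genes to the right of 2-fold, and the 11 transcription factors have 5. None of the 7 ligand genes read lies there, and 3 of those were past the filter.

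Markers of other cells were read beside these values. The 7 T and NK cell markers read here had a summed linear level of 143 in BMSC-Adipo and 144 in BMSC-Osteo, and 3 of them were below the filter. Of 8 leukocyte markers, *Cd14* (7.55 in BMSC-Adipo and 5.75 in BMSC-Osteo) and *Cd68* (5.40 and 3.99, the latter under 4.20) were at least 2-fold higher in BMSC-Adipo. The share of all genes past the filter was 7.88%. *Lyz2* had a difference of 0.90, and *Csf1r* had -0.32, and -1.30 on another probe set. The summed linear level of the list was 488 there and 288 in BMSC-Osteo. The defining marker *Ptprc*, which encodes CD45, had log2 levels of 2.56 and 2.78, and *Itgam* had 2.86 on both arrays, both below the filter. The 4 endothelial markers had summed linear levels of 87.7 and 91.6, with none past 2-fold. The part of such cells in the GTPase values was not tested. In a pooled culture, more cells making a transcript and more transcript per cell cannot be told apart. The lines carried the markers of their labels. The adipocytic genes *Adipoq*, *Pparg* and *Cebpa* were all at least 2-fold higher in BMSC-Adipo. The osteoblastic genes *Alpl*, *Ibsp* and *Pth1r* were all at least 2-fold higher in BMSC-Osteo. *Adipoq* had 3.16 in BMSC-Osteo, under 4.20, so it passed the filter through BMSC-Adipo alone.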

How the data were processed

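The log2 values were deposited by the authors, whose processing ran RMA in the oligo package (background correction, normalization across arrays and a summary per probe set); no package version is printed because the sources used here name none. The deposited series matrix repeats these log2 values (largest gap 0). A column with the authors' own log2 fold changes was not used. Of 45101 probe sets, 64 controls, 5368 without a gene and 1479 naming several genes were left out, except that of *Tgtp1* and *Tgtp2*. Those shared by *Gbp4* and *Gbp8* and by *Psmb9* and *Tap1* were read but not counted. Median levels were 5.01 (BMSC-Adipo) and 5.02 (BMSC-Osteo), and with 1 array per line precision is limited by that number. Genes were called at 2-fold. Every member was named with all its probe sets, and from the pathway lists the genes past 2-fold and the central ones. The members and lists were chosen with earlier results of these data known. One item of the lists and annotation terms is not reported here. Counting was tested on simulated data. Start-site windows were aligned locally with biopython (match 2, mismatch -1, gap opening -5, extension -0.5). Alternatives were other probe set choices, filters, scalings, fold thresholds, an added offset and the series matrix. Python 3.11.15, pandas 2.3.3, numpy 2.4.6, statsmodels 0.14.6 and biopython 1.88 were used.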

Additional observations from a re-analysis of the deposited data

How the results depend on the processing

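No paired analysis was possible because each line has 1 array, and no array could be left out. Of the 11 alternatives, the filters and size rules leave a member's difference as it is, and the series matrix repeats its value. An added offset cannot turn a sign. Of the members past 2-fold, only *Iigp1* and *Gbp7* had a second probe set, and their differences on it were 3.53 and 1.39. Other probe set choices could not move the rest. The scalings shifted values too little to turn the sign of a difference past 2-fold. The count of members at least 2-fold higher in BMSC-Adipo stayed at 6, except that it was 5 with a size rule of 4-fold, which 2.27% of all genes passed in that direction. The count in BMSC-Osteo was 1 (*Tgtp1*) with a size rule of 1.5-fold, which 14.5% of all genes passed in that direction, so 1 of 9 was near the background. The median of the members was 1.48 when 32 was added to each linear value and 1.43 with the probe set of lowest mean. The addition of 32 shrinks the difference of dim genes by construction, and brought *Iigp1* to 2.74, *Irgm2* to 2.76, *Igtp* to 2.46, *Gbp3* to 1.77 and *Gbp7* to 1.48. The share of all genes at least 2-fold higher in BMSC-Adipo was 5.73% without a filter and 9.09% with a filter at the 50th percentile. The smallest member difference past 2-fold, that of *Ifi47*, ranged from 1.27 to 1.45, *Irgm1* from 0.21 to 0.25 and *Tgtp1* from -0.76 to -0.68.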

Other observations

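By the deposited annotation, 7 members carry the term cellular response to interferon-beta and 3 the term cellular response to interferon-gamma, with *Tgtp1* left out because its probe set is shared. Among the 16 other genes past the filter with the interferon-beta term, 4 were at least 2-fold higher in BMSC-Adipo (25.0%, against 7.88% of all genes) and none in BMSC-Osteo, and their median difference was 0.10. The 4 were *Ifit1* (4.07) and *Ifit3* (3.59), which encode RNA-binding antiviral proteins, *Gm4951* (3.39) and *Gbp6* (1.70). Among the 26 other genes with the interferon-gamma term, 5 were at least 2-fold higher in BMSC-Adipo (19.2%) and 1 in BMSC-Osteo, with a median of 0.00. They were *Il12rb1* (2.73), a receptor chain for interleukin 12, the chemokines *Ccl9* (2.02), *Cx3cl1* (1.58) and *Ccl6* (1.34), and *Gbp6*. The levels of *Gm4951*, *Il12rb1* (3.64) and *Ccl6* (3.67) in BMSC-Osteo were under 4.20, so these genes passed the filter through BMSC-Adipo alone. The shares of 25.0% and 19.2% therefore rest in part on genes admitted by their level in BMSC-Adipo. Both shares also include relatives of the members, *Gm4951* and *Gbp6* for interferon-beta and *Gbp6* for interferon-gamma. The term GTPase activity, which 7 members share, gave 18 of 212 other genes (8.49%), near the share of all genes. The term defense response to protozoan, which 5 members share, gave 1 of 14 other genes (7.14%, *Gbp6*), with a median of -0.19.

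GTPases of the dynamin family that interferon does not induce gave counts near those of all genes, 7.88% toward BMSC-Adipo and 6.68% toward BMSC-Osteo. Of 9 past the filter, *Atl1* (1.62), an atlastin that shapes the endoplasmic reticulum, was at least 2-fold higher in BMSC-Adipo. *Dnm1* (-2.21, and -0.97 on a second probe set), a dynamin of endocytosis, was at least 2-fold higher in BMSC-Osteo. The median of the 9 was -0.20. Of 10 genes of the ATG8 conjugation machinery, which in mouse cells is needed to bring IRGs and GBPs to vacuoles, *Map1lc3b* (1.09) was at least 2-fold higher in BMSC-Adipo, 9 lay within 2-fold, and the median was -0.12. A count of 1 of 10 was also near the share of all genes.

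Over genes that are not members and lay past the filter, 50 of 359 with an ISRE core in a start-site window were at least 2-fold higher in BMSC-Adipo (13.9%), and 780 of 10308 without one (7.57%). The medians of both sets were -0.03. With a GAS element the share was 7.83% (69 of 881) and without one 7.78%. Genes with both elements gave 3 of 39 (7.69%), against 7.78% of the others. Toward BMSC-Osteo the counts were 18 of 359 with an ISRE core and 57 of 881 with a GAS element, beside 6.68% of all genes. These are shares over genes from 1 array per line, with no test.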
